A study of Mus musculus with 8 samples.

Results

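Described here are 35 interferon-induced genes in the newborn mouse lung, chosen by name: 24 genes of the type I interferon response, 9 interferon gamma-induced GTPase genes (7 of them guanylate-binding proteins, Gbp) and the transcription factors Irf1 and Irf8, kept in neither class. All 35 were measured, among 20842 named genes in all. The arrays profiled total RNA from 8 lungs of C57Bl/6J pups that were kept in a chamber at 20% oxygen from postnatal day 0 to day 3. Of these pups 4 were labelled wild type and 4 Fgf10+/-, so both groups shared strain, tissue, age and oxygen, and differed by label only in the Fgf10 genotype. Fgf10 encodes a growth factor of the lung mesenchyme that acts on the epithelium, and the comparison asks what the loss of 1 Fgf10 copy, as labelled, does in lungs that breathe normal air. The titles also call the Fgf10+/- arrays TG, and the sources used here do not say how the allele was made.

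Interferons are secreted proteins that set cells into an antiviral state. Type I interferons act through the receptor chains IFNAR1 and IFNAR2 and a factor complex that holds STAT2 and IRF9 and binds the interferon-stimulated response element (ISRE). Interferon gamma acts through IFNGR1 and IFNGR2 and the gamma-activated site (GAS) in promoters, and it induces Irf1, which then binds ISRE-like elements, and the GTPases that attack pathogens inside vacuoles. In the lung, epithelial cells, endothelium and macrophages can all carry out these responses, and many of the genes keep a low level without infection.

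Values are log2 signals of 1-colour (Cy3) Agilent arrays, so a difference of 1 is 2-fold, and differences are given as the mean of the arrays labelled Fgf10+/- minus the mean of the wild-type arrays. Across the 8 arrays the signals ran from 1.51 to 15.99 with a median of 3.47 over all features, and pairs of arrays correlated between 0.977 and 0.986. Surfactant and airway genes that define lung epithelium were present on every array, with mean signals of 15.98 for Sftpc, 15.94 for Scgb1a1 and 11.48 for Ager. The Fgf10 signal was not lower in the arrays labelled Fgf10+/-. It averaged 7.46 ± 0.40 (SD, n = 4) in wild type and 7.95 ± 0.32 (SD, n = 4) in the arrays labelled Fgf10+/- (limma with Benjamini-Hochberg adjustment, adjusted p = 0.507). The sources used here do not say whether the probes fall inside the disrupted stretch, so this signal is no check of the label. Wild-type replicate 4 stood apart: the mean deviation of 8 skeletal muscle genes was 2.97 there and between -0.54 and -0.23 on the other 7 arrays, and that of 6 cartilage genes was 3.43 there. The counts by class are given with and without it, as are the genes that it moved most. In bulk lung RNA, fewer cells of a type and less RNA per cell cannot be told apart.

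None of the 35 genes passed an adjusted p of 0.05 by limma with Benjamini-Hochberg adjustment over all genes, and neither did any of the 20842 genes tested (0.0%). At an unadjusted p under 0.05, 1 of the 35 passed, Gbp2, which is 2.86% of them against 11.0% of all genes. The 4 wild-type and 4 Fgf10+/- arrays did not overlap for 3 of the 35, Gbp2 (higher in the arrays labelled Fgf10+/-), Irf1 and Irf9 (both lower), which is 8.57% against 7.39% of all genes. Both shares of the 35 are thus near or under those of genes in general. The 35 differences had a median of -0.07, beside -0.00 for all genes, and ran from -0.60 for Mx1 to 0.55 for Gbp8.

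The signs were split by class. Of the 24 type I genes, 19 had a lower mean in the arrays labelled Fgf10+/-, which is 79.2% where 50.2% of all genes did, and their median difference was -0.16. Of the 9 GTPases, 7 had a higher mean there, 77.8% where 49.8% of all genes did, with a median of 0.14. Without wild-type replicate 4 the counts were 16 of 24 and 6 of 9, and without Fgf10+/- replicate 4 they were 15 of 24 and 8 of 9. These genes were read in the same 8 RNAs and can vary together, so the counts are a description of these arrays and carry no test.

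**Figure D1:**
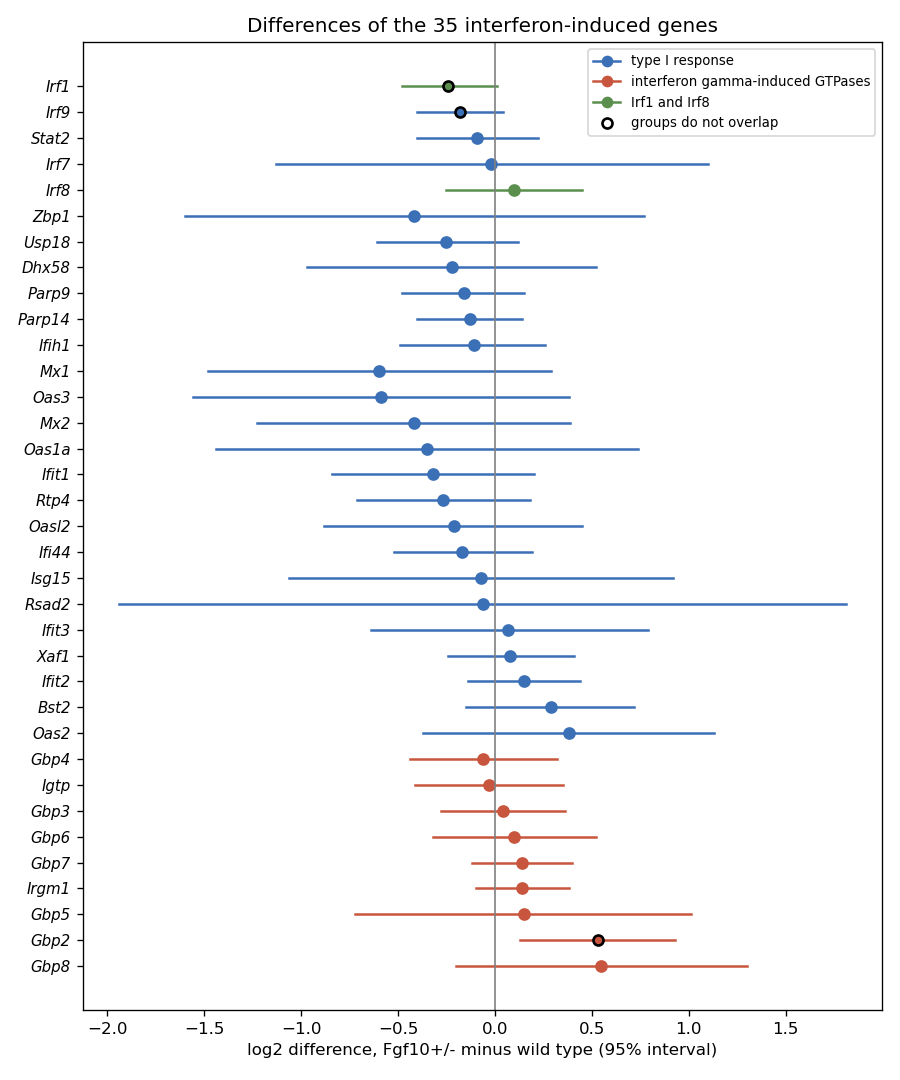
Difference in log2 signal between the arrays labelled Fgf10+/- and wild type (points) with its 95% interval from limma (lines) for the 35 genes, ordered by role and coloured by class, n = 4 per group. The interval excludes 0 for Gbp2 alone, and black rings mark Irf1, Irf9 and Gbp2, whose groups do not overlap.

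Among the 5 transcription factors, 4 had a lower mean in the arrays labelled Fgf10+/-, with a median difference of -0.09. Irf1, a factor induced by both kinds of interferon, is a regulator of the GTPases. Its log2 signals were 10.25, 10.45, 10.26 and 10.23 in wild type and 10.11, 10.18, 10.04 and 9.91 in the arrays labelled Fgf10+/-. Every wild-type array was thus above every Fgf10+/- array, by a margin of hundredths of a log2 unit between the nearest pair. The difference of -0.24 (standard error 0.11, 95% interval -0.48 to 0.01) did not pass (limma, Benjamini-Hochberg adjusted p = 0.476). A second, dim probe of Irf1 with a mean signal of 2.56 differed by 0.06, and with the mean of both probes the groups overlapped.

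Irf9 is the DNA-binding part of the factor complex that type I interferon activates. It was read at 9.48, 9.40, 9.37 and 9.36 in wild type and at 9.33, 9.11, 9.21 and 9.23 in the arrays labelled Fgf10+/-. Its arrays were the most alike within a group of all 35 genes, with a within-group SD of 0.07, and again no Fgf10+/- array reached the lowest wild-type one. The difference was -0.18 (standard error 0.10, 95% interval -0.40 to 0.04, limma adjusted p = 0.549).

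The other factors overlapped between the groups. Stat2, the partner of Irf9 in that complex, differed by -0.09, with signals of 8.58, 8.66, 8.45 and 8.93 in wild type and 8.60, 8.65, 8.66 and 8.36 in the arrays labelled Fgf10+/-, and by 0.00 without wild-type replicate 4. Irf8, a factor of macrophages and dendritic cells, differed by 0.10 (95% interval -0.25 to 0.45). Irf7, which amplifies the production of type I interferon, differed by -0.02, but its interval ran from -1.13 to 1.10. Its single arrays lay anywhere between 2.89 and 4.74 in wild type and between 3.02 and 4.41 in the arrays labelled Fgf10+/-, so a change of 2-fold in either direction lay within the interval.

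Promoter sequence was set beside these values, since the ISRE and GAS are the elements through which interferon acts on the genes. RefSeq windows (build GRCm38.p6) from 250 bases before to 50 after a start site were matched by symbol for 23 of the 35 genes, 28 windows in all. The ISRE was searched as GAAANNGAAA and the GAS as TTCNNNGAA, on both strands. The ISRE letters stood in a window of 15 of the 23 genes (65.2%), where 3.99% of all 27025 genes in that collection had them, and the GAS letters in 8 of 23 (34.8%), where 9.55% of all genes had them. All 6 GTPases with a window (Gbp2, Gbp3, Gbp5, Gbp7, Igtp and Irgm1) and 9 of 15 type I genes held the ISRE letters, and 3 of each class held the GAS letters. Both motifs overlapped each other in Bst2 only. A match describes the letters, not a bound site.

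**Figure D2:**
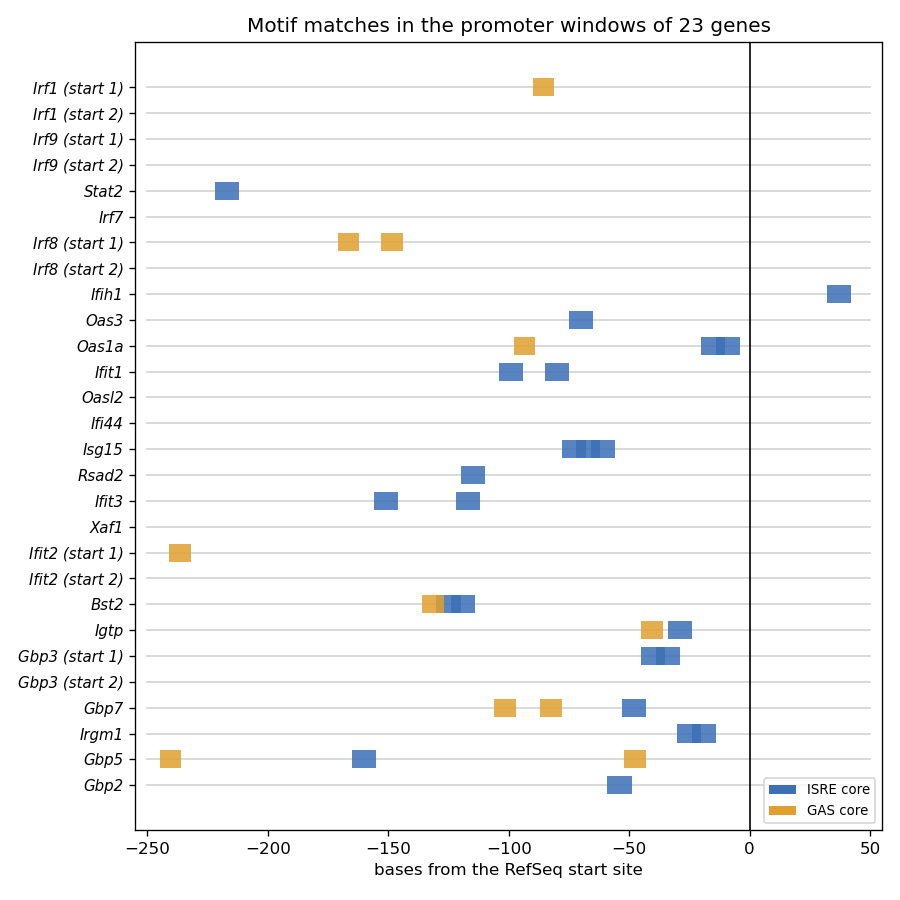
Matches to the ISRE letters (blue) and GAS letters (orange) in 28 RefSeq promoter windows of 23 genes, plotted as bases from the start site; each grey line is a window of 300 bases. In every window with ISRE letters except that of Ifih1 the match lies before the start site.

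The 250 bases before the start site are printed for 6 genes: Gbp2 and Irf1, whose groups did not overlap; Gbp3 and Gbp7, which lie near Gbp2 on chromosome 3 and whose groups did overlap; and Isg15 and Rsad2, type I genes that varied widely between arrays of the same group. Each is given 5′ to 3′ on the strand of the gene, with the ISRE and GAS letters in capitals. The stretches are Gbp2 at chr3:142620413-142620662, Gbp3 at chr3:142559794-142560043, Gbp7 at chr3:142530086-142530335 and Irf1 at chr11:53769764-53770013, all on the plus strand, and Isg15 at chr4:156200819-156201068 and Rsad2 at chr12:26456453-26456702 on the minus strand.
Gbp2: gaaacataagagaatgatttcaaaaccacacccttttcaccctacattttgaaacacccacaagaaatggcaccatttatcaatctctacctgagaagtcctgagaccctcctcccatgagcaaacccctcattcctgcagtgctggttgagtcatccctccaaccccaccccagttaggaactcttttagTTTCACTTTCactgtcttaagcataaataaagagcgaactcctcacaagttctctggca
Gbp3: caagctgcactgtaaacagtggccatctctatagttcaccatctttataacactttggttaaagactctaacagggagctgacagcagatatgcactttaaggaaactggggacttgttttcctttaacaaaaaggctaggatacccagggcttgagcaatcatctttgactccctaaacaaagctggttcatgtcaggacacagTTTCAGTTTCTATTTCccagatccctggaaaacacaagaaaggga
Gbp7: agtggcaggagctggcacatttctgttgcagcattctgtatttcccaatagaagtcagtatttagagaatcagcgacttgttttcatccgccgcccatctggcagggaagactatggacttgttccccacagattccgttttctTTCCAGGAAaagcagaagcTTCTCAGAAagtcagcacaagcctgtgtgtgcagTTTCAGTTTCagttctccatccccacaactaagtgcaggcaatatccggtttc
Irf1: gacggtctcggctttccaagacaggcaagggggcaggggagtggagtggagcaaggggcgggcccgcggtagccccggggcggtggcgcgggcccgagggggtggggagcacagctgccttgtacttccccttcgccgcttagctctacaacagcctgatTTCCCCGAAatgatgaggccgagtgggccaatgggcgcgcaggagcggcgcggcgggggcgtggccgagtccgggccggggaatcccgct
Isg15: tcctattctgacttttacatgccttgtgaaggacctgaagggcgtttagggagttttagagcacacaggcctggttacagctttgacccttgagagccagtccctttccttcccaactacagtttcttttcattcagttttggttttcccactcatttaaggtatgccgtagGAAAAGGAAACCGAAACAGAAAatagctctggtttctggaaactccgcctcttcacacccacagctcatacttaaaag
Rsad2: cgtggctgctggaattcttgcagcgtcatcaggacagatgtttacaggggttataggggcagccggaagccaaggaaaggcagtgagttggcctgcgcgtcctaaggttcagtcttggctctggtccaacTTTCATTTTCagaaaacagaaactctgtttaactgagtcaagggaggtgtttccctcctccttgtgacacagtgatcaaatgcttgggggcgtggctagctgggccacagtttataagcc
In Gbp2 the ISRE letters begin 59 bases before the start site, on the opposite strand, and in Gbp7 they begin 53 before it. Gbp3 holds 2 overlapping ISRE matches, beginning 45 and 39 bases before its start, and Isg15 holds 3, beginning 78, 72 and 66 before. Rsad2 has 1, beginning 120 bases before. Irf1 has no ISRE letters in this window but 1 GAS match, beginning 90 bases before, and Gbp7 has 2 GAS matches besides its ISRE. Neither of the 2 windows of Irf9 held either motif. So Gbp2, with the separated groups, and Gbp3 and Gbp7, without, all had ISRE letters close to the start.

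The 6 sensors and regulators all had a lower mean in the arrays labelled Fgf10+/- (median difference -0.19), and in none of them were the groups separate. Usp18 removes ISG15 from proteins and restrains signalling at the type I receptor. Its signals were 7.01, 6.54, 6.42 and 6.78 in wild type and 6.22, 6.44, 6.62 and 6.48 in the arrays labelled Fgf10+/-. The 2 highest arrays were wild type, but wild-type replicate 3 was below 3 of the 4 Fgf10+/- arrays. The difference was -0.25 (standard error 0.16, 95% interval -0.61 to 0.12, limma adjusted p = 0.628).

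Parp9, a member of the family of ADP-ribosyltransferases that supports interferon signalling, gave 7.61, 7.83, 7.88 and 7.63 in wild type and 7.85, 7.62, 7.42 and 7.41 in the arrays labelled Fgf10+/-. Fgf10+/- replicates 3 and 4 were the lowest of the 8, while replicate 1 equalled the upper wild-type arrays. The difference was -0.16 (standard error 0.14, limma adjusted p = 0.723). Its relative Parp14 differed by -0.13.

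The RNA sensors differed by small amounts against their spread. Ifih1, which encodes the sensor MDA5 of long double-stranded RNA, differed by -0.11 (95% interval -0.49 to 0.26) at its brighter probe. A second probe of Ifih1, with a mean signal of 2.71, below the median of all features, differed by -0.84 with separate groups, so the probes disagree in size. Dhx58, which encodes the related helicase LGP2, differed by -0.22, and by 0.06 without Fgf10+/- replicate 4. Zbp1, a sensor of Z-form nucleic acid that can trigger cell death, differed by -0.42, with wild-type arrays at 4.06, 4.81, 5.40 and 3.29 and Fgf10+/- arrays at 4.77, 3.09, 3.69 and 4.36. The highest array and the lowest but 1 were both wild type, the interval ran from -1.60 to 0.77, and a second probe differed by 0.11. Without wild-type replicate 4 the difference of the brighter probe was -0.78.

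**Figure D3:**
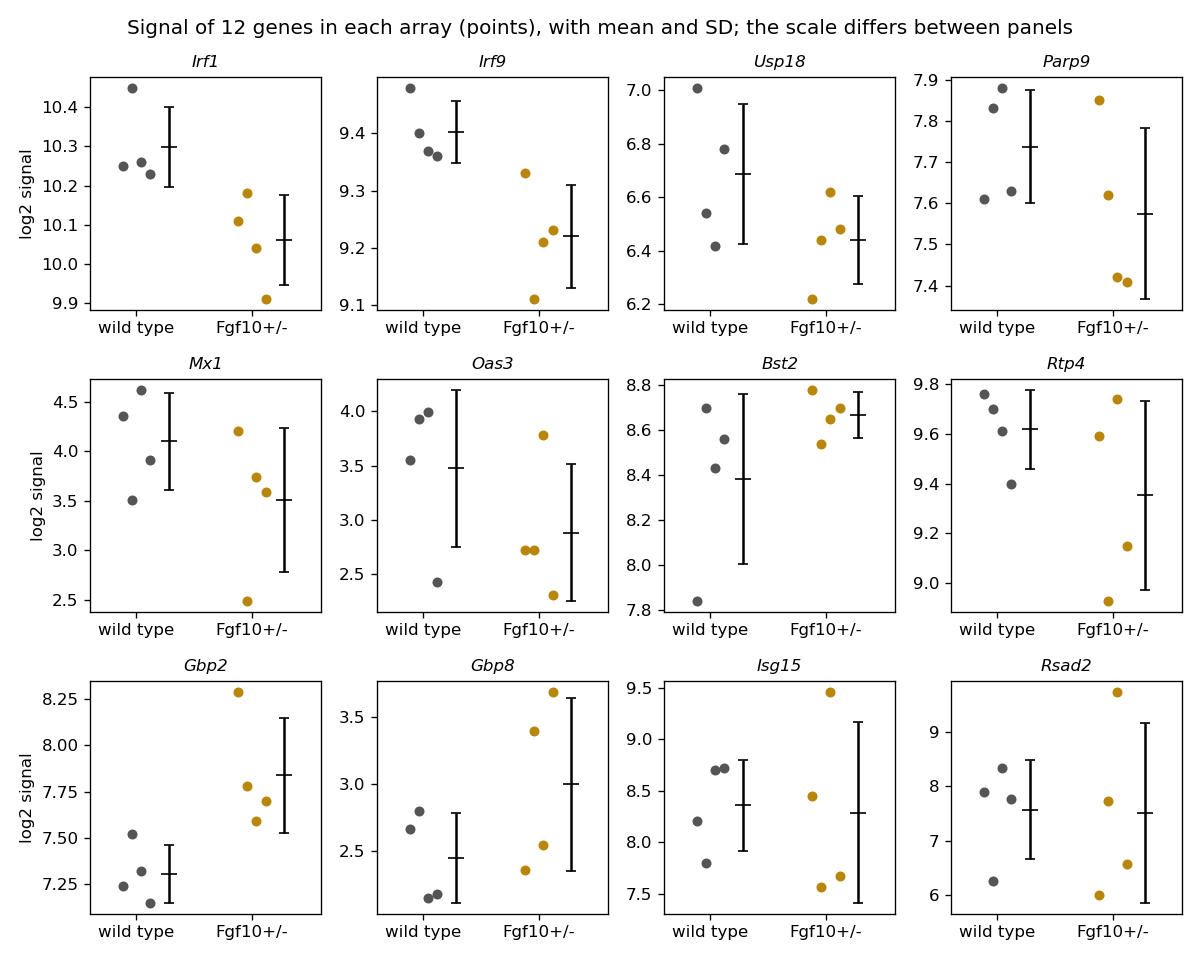
Log2 signal of 12 genes on each of the 8 arrays (points, in replicate order from left to right), with the mean and SD of each group of 4; the vertical scale differs between panels. Irf1, Irf9 and Gbp2 are the panels in which the groups do not overlap, and in Isg15 and Rsad2 Fgf10+/- replicate 3 is the highest point.

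The 15 antiviral effectors carry out the response. Of these 10 had a lower mean in the arrays labelled Fgf10+/-, 5 a higher one, the median difference was -0.17, and in 0 of the 15 were the groups separate. Mx1, a dynamin-like GTPase that blocks virus replication and whose coding sequence is disrupted by a deletion in C57BL/6 mice, had the lowest difference of the 35 genes. It gave 4.36, 3.51, 4.62 and 3.91 in wild type and 4.20, 2.49, 3.74 and 3.59 in the arrays labelled Fgf10+/-. Fgf10+/- replicate 2 was far below the rest, and the other 3 Fgf10+/- arrays lay within the wild-type range, so that the difference was -0.26 without replicate 2. The difference was -0.60 with a standard error of 0.39 and an interval from -1.48 to 0.29 (limma adjusted p = 0.634).

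For Oas3, one of the synthetases whose product activates RNase L, the wild-type arrays gave 3.55, 3.93, 3.99 and 2.43 and the Fgf10+/- arrays 2.72, 2.72, 3.78 and 2.31. In each group 1 array ran against the rest, wild-type replicate 4 being low and Fgf10+/- replicate 3 high, and these signals were near the floor. The difference was -0.59 (standard error 0.42, 95% interval -1.56 to 0.38, limma adjusted p = 0.672). It was -0.94 without wild-type replicate 4 and -1.24 without both of those arrays. Since both ran against their own groups in this gene, leaving them out could only widen its difference. Mx2 differed by -0.42, a value that rested on 1 array: its wild-type arrays lay between 4.71 and 4.79 and Fgf10+/- replicate 3 at 3.17, and without that replicate the difference was -0.03.

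Rtp4, a chaperone of receptors that restrains some flaviviruses, gave 9.76, 9.70, 9.61 and 9.40 in wild type and 9.59, 8.93, 9.74 and 9.15 in the arrays labelled Fgf10+/-. Fgf10+/- replicates 2 and 4 were below all wild-type arrays, and replicates 1 and 3 were among them. The difference was -0.27 (standard error 0.19, 95% interval -0.71 to 0.18, limma adjusted p = 0.681), and it was -0.13 without Fgf10+/- replicate 2.

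Bst2 encodes tetherin, which holds budding virus at the cell surface, and it was among the 5 effectors with a higher mean. Its arrays gave 7.84, 8.70, 8.43 and 8.56 in wild type and 8.78, 8.54, 8.65 and 8.70 in the arrays labelled Fgf10+/-. A single low array, wild-type replicate 1, set most of the difference of 0.29 (standard error 0.19, 95% interval -0.15 to 0.72, limma adjusted p = 0.64), which was 0.11 without it. The others with a higher mean were Oas2 at 0.38, Ifit2 at 0.15, Xaf1 at 0.08 and Ifit3 at 0.07. Single arrays carried 3 of these values. Oas2 differed by 0.15 without Fgf10+/- replicate 1 and by 0.19 without wild-type replicate 4, Xaf1 by 0.01 without wild-type replicate 4, and Ifit3 by -0.18 without Fgf10+/- replicate 3. A second, dim probe of Xaf1 with a mean signal of 2.64 differed by -0.33.

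The remaining synthetase-family genes had wide ranges. Oas1a differed by -0.35, from 8.08, 7.18, 7.73 and 6.64 in wild type to 8.24, 6.43, 7.20 and 6.35 in the arrays labelled Fgf10+/-. Oasl2 differed by -0.21, from 8.04, 8.07, 7.79 and 7.52 to 8.31, 7.17, 7.98 and 7.11. In both genes Fgf10+/- replicate 1 was the highest of all 8 arrays and Fgf10+/- replicates 2 and 4 were the lowest. Without Fgf10+/- replicate 1 the differences were -0.75 for Oas1a and -0.44 for Oasl2, and without wild-type replicate 4 they were -0.61 and -0.33. Oas2 did not share that order in full, with Fgf10+/- replicates 1 and 2 its highest arrays. Ifit1, which binds foreign RNA caps, differed by -0.32 (95% interval -0.84 to 0.20) and by -0.52 without wild-type replicate 4. Ifi44 differed by -0.17.

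Isg15 and Rsad2 had group means close together and arrays far apart. Isg15 encodes the ubiquitin-like protein that is attached to other proteins during the response. Its signals were 8.21, 7.80, 8.70 and 8.72 in wild type and 8.45, 7.57, 9.46 and 7.67 in the arrays labelled Fgf10+/-. The difference was -0.07 with an interval from -1.06 to 0.92, and it was -0.46 without Fgf10+/- replicate 3 and 0.05 without wild-type replicate 4. A second, dimmer probe differed by 0.35. It gave 4.67, 5.01, 4.75 and 4.51 in wild type and 4.83, 4.88, 6.39 and 4.26 in the arrays labelled Fgf10+/-. With all arrays kept the direction thus differed between the probes, and at both of them Fgf10+/- replicate 3 was the highest array.

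Rsad2 encodes viperin, a radical SAM enzyme that makes a chain-terminating nucleotide. It gave 7.90, 6.27, 8.34 and 7.77 in wild type and 6.00, 7.72, 9.73 and 6.57 in the arrays labelled Fgf10+/-. Its highest and its lowest array both carried the Fgf10+/- label, and they spanned 3.73 log2 units. The difference was -0.06 with an interval from -1.94 to 1.81, and it lay between -0.81 (without Fgf10+/- replicate 3) and 0.44 when each array was left out in turn. Ifit3 had its highest signal, 7.35, on that same array.

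On these arrays the spread within groups was wider among the antiviral effectors than among the GTPases. The within-group SD pools both groups. Its median was 0.31 over all genes, 0.27 over the 35, 0.49 over the 15 effectors and 0.23 over the GTPases. Rsad2 had an SD of 1.33, at the 99.7th percentile of all genes tested, Zbp1 0.83 and Irf7 0.78, and these 3 lay above the 95th percentile. In all, 13 of the 35 were above the 75th percentile, and 20 were below the median. Spread was larger for dim genes in general: among the 10421 genes above the median signal the median SD was 0.18, and among the 25 of the 35 above it the median was 0.22. No test of these medians was made.

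**Figure D4:**
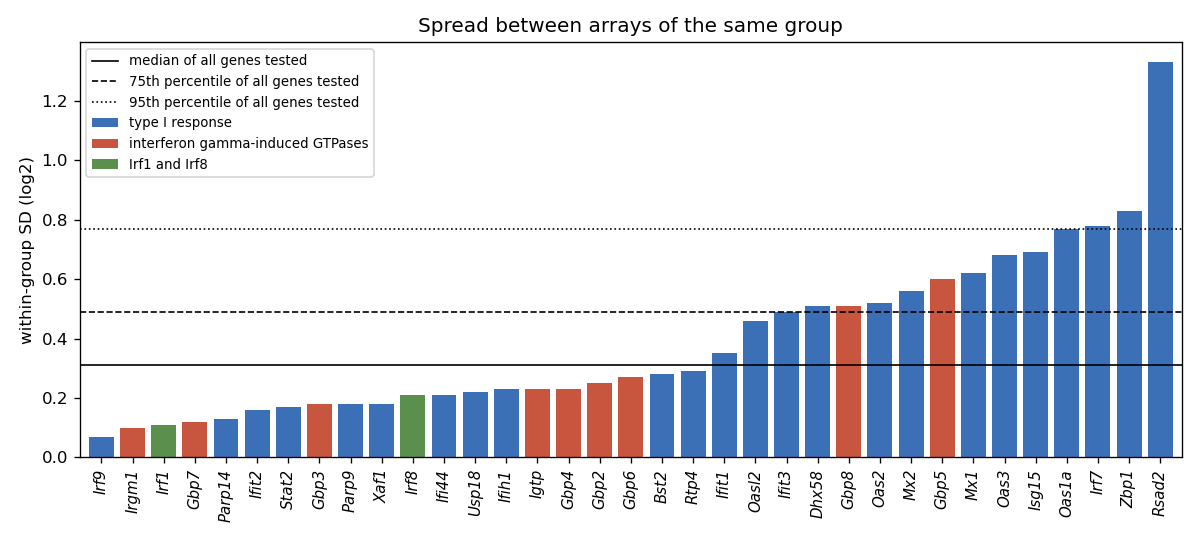
Within-group SD of the log2 signal for each of the 35 genes (bars, coloured by class, sorted), with the median, 75th and 95th percentile of all 20842 genes as lines. Rsad2, Zbp1 and Irf7 exceed the 95th percentile at 0.77, and Irf9 has the shortest bar at 0.07.

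Of the 9 GTPases, 7 had a higher mean in the arrays labelled Fgf10+/-, and their differences ran from -0.06 to 0.55. Gbp2, a guanylate-binding protein that coats pathogen vacuoles and takes part in releasing their contents to inflammasomes, had the smallest p of the 35 genes. Its signals were 7.24, 7.52, 7.32 and 7.15 in wild type and 8.29, 7.78, 7.59 and 7.70 in the arrays labelled Fgf10+/-. All 4 Fgf10+/- arrays were above all 4 wild-type arrays, with replicate 1 far above the other 3. The means were 7.31 ± 0.16 and 7.84 ± 0.31 (SD, n = 4 each), a difference of 0.53 or 1.45-fold, with a standard error of 0.17 and an interval from 0.13 to 0.93. The unadjusted limma p was 0.0148 and the Benjamini-Hochberg adjusted p 0.305, so Gbp2 did not pass. When each array was left out in turn, the difference lay between 0.38 (without Fgf10+/- replicate 1) and 0.61.

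Gbp8 had a difference of about the same size but lay near the floor of the arrays. It was read at 2.67, 2.80, 2.15 and 2.18 in wild type and at 2.36, 3.40, 2.55 and 3.69 in the arrays labelled Fgf10+/-. Fgf10+/- replicates 2 and 4 exceeded every wild-type array and replicates 1 and 3 did not. The difference was 0.55 (standard error 0.32, 95% interval -0.20 to 1.30, limma adjusted p = 0.598), and both means, 2.45 and 3.00, were under the median feature signal of 3.47.

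The other Gbp genes differed little. Gbp3 differed by 0.04 (95% interval -0.28 to 0.36), Gbp4 by -0.06 (-0.44 to 0.32) and Gbp7 by 0.14 (-0.12 to 0.40), so for these 3 a 2-fold change in either direction lay outside the interval. Gbp5, which promotes inflammasome assembly, differed by 0.15 with wide limits of -0.72 and 1.01. Its Fgf10+/- arrays held both its highest signal, 5.99 in replicate 1, and its lowest, 4.22 in replicate 2. Gbp6 was read by a probe that the platform lists under the older name Mpa2l, and differed by 0.10. The probe that the platform itself calls Gbp6 had a mean signal of 2.43 and differed by 0.43.

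The 2 GTPases of the immunity-related family, which act on vacuole membranes and in autophagy, were also close to 0. Igtp was read by 10 array features whose differences ran from -0.12 to 0.21, with -0.03 at the brightest. Whether these features hold different probes or repeats of the same probe was not checked. Irgm1 differed by 0.14 (95% interval -0.10 to 0.38) at its brighter probe and by -0.20 at the other. Probes of a family with closely related sequences may read each other's transcripts, and that was not tested.

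Seen array by array and without regard to replicate number, the type I genes did not divide by genotype. The mean deviation of the 24 genes from their own 8-array means was 0.21, 0.06, 0.17 and -0.14 in wild type and 0.13, -0.28, 0.16 and -0.31 in the arrays labelled Fgf10+/-. Fgf10+/- replicates 2 and 4 were the low arrays, and replicates 1 and 3 lay among the wild-type ones. Each Fgf10+/- array was below the wild-type array of the same number, though nearly equal to it at number 3. Whether the numbers mark pairs is not known. The group means of 0.08 ± 0.16 and -0.08 ± 0.25 (SD, n = 4 each) differed by less than the spread within the Fgf10+/- group. Fgf10+/- replicate 4 was the lowest array for 9 of the 24 genes and the highest for 0. The 9 GTPases had mean deviations of -0.14, 0.11, -0.08 and -0.23 in wild type and 0.22, -0.01, 0.01 and 0.12 in the arrays labelled Fgf10+/-, so here wild-type replicate 2 overlapped the Fgf10+/- arrays.

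**Figure D5:**
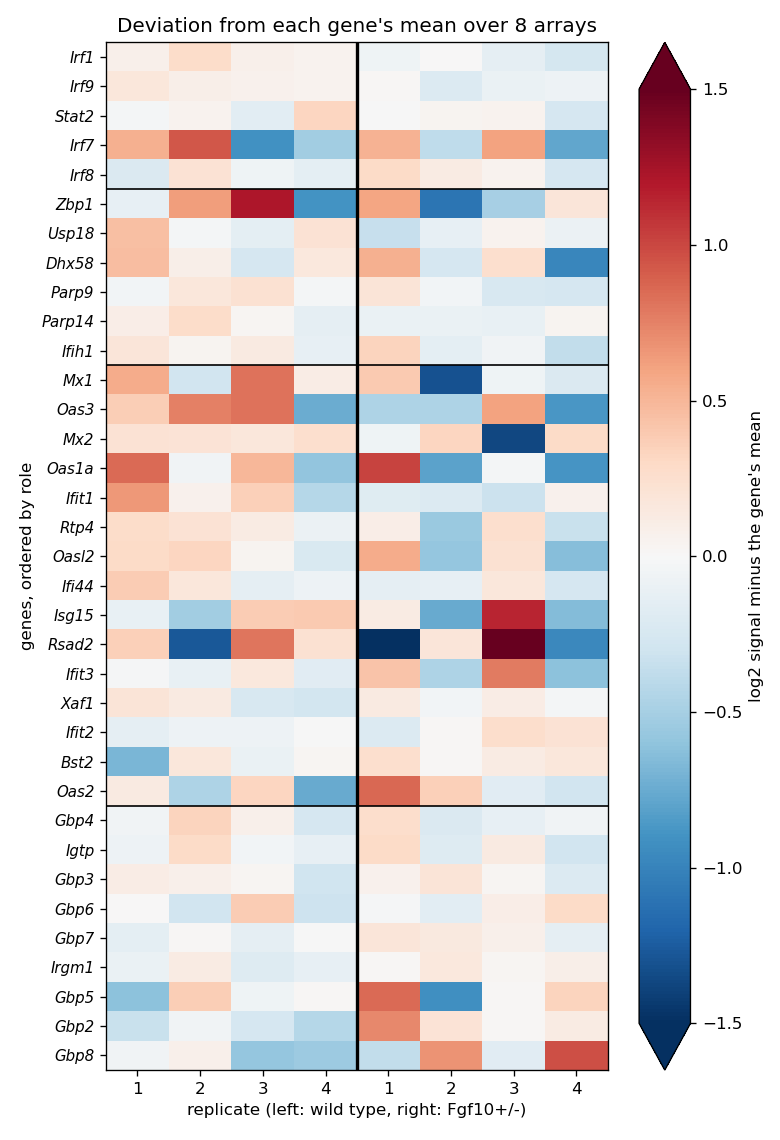
Deviation of the log2 signal from each gene's mean over 8 arrays, for the 35 genes (lines, ordered by role) and 8 arrays (columns, wild type left of the black bar and Fgf10+/- right of it); the colours are capped at 1.5. Fgf10+/- replicates 2 and 4 are blue across many type I genes while replicates 1 and 3 are not, and the line of Gbp2 is red in all Fgf10+/- columns or near white.

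Markers of other cells were followed on the same arrays. The 9 measured of 10 macrophage and monocyte genes had mean deviations from -0.07 to 0.19 in wild type, and of 0.39, 0.01, -0.11 and -0.48 in the arrays labelled Fgf10+/-, so that Fgf10+/- replicate 1 was highest and replicate 4 lowest for macrophage genes. Among the 35 interferon-induced genes, Fgf10+/- replicate 1 was the highest array for 11 and Fgf10+/- replicate 4 the lowest for 12. Fgf10+/- replicates 2 and 3 did not share an order, with type I deviations of -0.28 and 0.16 beside macrophage deviations of 0.01 and -0.11. Wild-type replicate 1 and Fgf10+/- replicate 1 were each the highest array for 6 of the 24 type I genes. The 6 lung epithelial genes had deviations from 0.06 to 0.26 in wild type and from -0.24 to -0.04 in the arrays labelled Fgf10+/-, without overlap. These genes did not all differ alike. Sftpa1 differed by -0.67, Ager by -0.55, Foxj1 by -0.29 and Sftpb by -0.28. Scgb1a1 and Sftpc, both near the highest signal of the arrays at 15.99, differed by -0.03 and -0.0. The 10 T and NK cell genes ranged from -0.03 to 0.12 and from -0.21 to 0.05, and 6 endothelial genes from -0.14 to 0.13 and from -0.09 to 0.08. No value of these arrays is at 0, and background levels were not used here. Among the T and NK cell genes the mean signals of Ncr1 (2.48), Klrb1c (2.80) and Gzmb (3.37) were under the feature median of 3.47. The part of these cells in the interferon-induced values was not tested.

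The rest of the pathway was read from 87 other genes: interferons, receptors, kinases, inhibitors, upstream sensors, further induced genes, antigen presentation and chemokines. By limma 0 of the 87 passed after adjustment, and 10 were at an unadjusted p under 0.05 (6 higher, 4 lower), 11.5% beside 11.0% of all genes. Their groups were separate in 9 (3 higher, 6 lower), 10.3% beside 7.39%. The median difference of the 87 was 0.01. Some of the 87, among them Iigp1, Gbp2b, Trim25, Adar, B2m and H2-K1, were read by multiple features. Only the brightest feature of each is given, and how far the others go with it is not shown here.

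The receptor chains for type I interferon and interferon gamma had overlapping groups. Ifnar1 differed by -0.19 (95% interval -0.58 to 0.20) and Ifnar2 by 0.01 (-0.21 to 0.24). Ifngr1 differed by 0.00 (-0.29 to 0.29) and Ifngr2 by 0.08 (-0.16 to 0.32). Ifnlr1, the chain particular to interferon lambda, which acts mainly on epithelium, gave 7.67, 7.38, 7.56 and 7.70 in wild type and 7.03, 7.04, 7.22 and 7.02 in the arrays labelled Fgf10+/-. Its groups were separate, with a difference of -0.50 (standard error 0.11, limma adjusted p = 0.184), beside the lower mean deviation of the epithelial markers given above. The part of those markers in the Ifnlr1 value was not tested.

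Most ligands had low signals, under the median of all features in both groups for Ifnb1 and Ifng. Ifnb1 averaged 2.41 in wild type and 2.55 in the arrays labelled Fgf10+/-, and Ifng 2.86 and 2.66. Ifna1 differed by 0.86 (limma adjusted p = 0.184) at means of 2.67 and 3.53. Ifnk, an interferon best known from skin keratinocytes, differed by -1.60 (limma adjusted p = 0.235), with wild-type arrays between 4.67 and 5.19 and Fgf10+/- arrays between 2.49 and 4.24.

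Among other induced genes, Iigp1, a GTPase of the same family as Igtp and Irgm1, had the smallest p of the 87. It gave 7.99, 8.16, 7.95 and 8.24 in wild type and 8.64, 8.94, 8.82 and 8.80 in the arrays labelled Fgf10+/-. The groups were separate and the difference was 0.71 (standard error 0.12, limma adjusted p = 0.123). Iigp1 passed the adjusted threshold when limma used robust settings and a variance trend, where 1.99% of all genes passed. It also passed when genes under the median signal were left out, where 2.76% of the genes kept passed. Ifnlr1 passed in the latter case. Gbp2b, read near the floor at means of 2.26 and 2.97, also differed by 0.71 (limma adjusted p = 0.306). Trim25, an activator of the RNA sensor RIG-I, differed by -0.29 (limma adjusted p = 0.352) and Adar, which edits double-stranded RNA, by -0.26 (limma adjusted p = 0.375).

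Genes of antigen presentation, many of them induced by interferon gamma, had a higher mean in 10 of 15, with a median of 0.18. B2m, the light chain of class I molecules, gave 12.45, 12.54, 12.55 and 12.43 in wild type and 13.16, 12.88, 13.17 and 12.60 in the arrays labelled Fgf10+/-. The groups were separate and the difference was 0.46 (limma adjusted p = 0.302). H2-K1, a class I heavy chain, differed by 0.57 (limma adjusted p = 0.312) and Ciita, the activator of class II genes, by 1.03 (limma adjusted p = 0.336), with overlapping groups in both. The class II genes of the same list did not share that size of difference: H2-Aa differed by -0.04, H2-Ab1 by 0.10, H2-Eb1 by -0.12 and Cd74 by -0.08. Class I heavy chain genes are close in sequence, and whether the H2-K1 probe reads that gene alone was not tested.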

How the data were processed

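Total RNA was labelled with Cy3 and hybridised to 1-colour Agilent arrays, per the labels' protocols. The table deposited by the authors holds log2 signals of 62976 features on 8 arrays. Per the submitters' processing notes, the authors used limma, of no stated version. Sorted values differed by at most 0.0042 between arrays, so the deposited log2 values were taken as quantile normalized and kept. The sources used here give neither background correction nor spot flags, and differences near the floor may be compressed.

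Features were named from the platform annotation (31465 with 1 symbol, 0 with several, 31511 unnamed). Symbols were updated by accession through RefSeq (GRCm38.p6), which held 29050 of them. Of the named features, 40 had a blank and were dropped. The feature with the highest mean stood for its gene, and 53 features read the 35 genes. The test was limma 3.58.1 in R 4.3.3 on all 20842 genes (two-sided, lmFit and eBayes with genotype as the only term, threshold 0.05 after Benjamini-Hochberg adjustment), and was tested on simulated data. Standard errors, intervals and p-values are limma's. The series' design text calls the 4 samples per genotype independent. The sources used here name no litter, slide or scan date, so no batch was tested, and 4 arrays per group limit the precision. Pairs of arrays with identical values numbered 0.

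The genes, lists and tests were chosen with earlier results of these data known. Genes given in full were those at an unadjusted p under 0.05 or with separate groups, the 2 with the smallest p of each role, the 2 highest and 2 lowest differences and the 3 brightest. Other members were added where their arrays or probes diverged, after their values were seen. Of the other pathway genes, those at an unadjusted p under 0.05 were named, with receptors and ligands named in advance. Alternatives were the mean of a gene's features, median and 75th percentile centring, leaving out genes below the 25th or 50th percentile of signal, array weights, robust settings with a variance trend, a replicate block, leaving out each array, leaving out wild-type replicate 4 with Fgf10+/- replicate 3, using the Gbp genes without Igtp and Irgm1, and adding Irf1 and Irf8 to the type I class. Reading Gbp6 by the platform's own symbol was chosen after seeing the data. Figures were drawn with matplotlib 3.10.9.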

Additional observations from a re-analysis of the deposited data

Results flagged for a closer look

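In 2 of the 70 groups of 4 arrays examined (35 genes in both genotypes), 1 array lay far from the other 3 by Dixon's criterion, which chance alone meets in about 1 of 20 groups. For Irf1, wild-type replicate 2 was the highest at 10.45, and the nearest of the other wild-type arrays was at 10.26. For Parp14, which encodes an ADP-ribosyltransferase of the interferon response, replicate 4 was the highest of the arrays labelled Fgf10+/- at 8.30, and the nearest of the others was at 8.16.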

How the results depend on the processing

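No alternative brought any of the 35 genes past an adjusted p of 0.05 (lowest adjusted p 0.106, with genes below the 50th percentile of signal left out), and none of the 10 genes refitted under each alternative that kept them (Irf1, Irf9, Usp18, Parp9, Mx1, Oas3, Bst2, Rtp4, Gbp2 and Gbp8) changed sign. Of the others, Irf7, Dhx58, Isg15, Rsad2, Ifit3, Gbp3, Gbp4, Gbp5 and Igtp changed sign when some single array was left out. Over all genes, 0 passed as reported, against 38 without genes below the 25th percentile, 288 without those below the 50th, 414 with a variance trend and robust settings, 3 with array weights and between 0 and 1 when single arrays were left out. The 35 held 1 gene at an unadjusted p under 0.05 as reported (Gbp2, where 11.0% of all genes passed), against 2 with the mean of all features (with Ifih1; 10.6% of all genes), 2 without genes below the 25th percentile (13.7%) and 2 with the variance trend (12.2%), both with Irf1, 3 without those below the 50th (with Irf1 and Irf9; 18.3%), 3 with the replicate block (with Oas3 and Mx1; 11.8%), 3 without wild-type replicate 4 and Fgf10+/- replicate 3 together (with Ifit1 and Oas3; 12.2%), and between 1 and 3 when single arrays were left out. The highest of these, 3, came without wild-type replicate 4 (Ifit1, Oas3 and Gbp2). Over all genes the share without single arrays was between 8.74% and 12.8%, the latter without wild-type replicate 4. Separate groups numbered 3 as reported (7.39% of all genes) and 5 without those same 2 arrays, where 19.2% of all genes were separate. They numbered between 3 and 4 without single arrays, where between 9.72% and 13.7% of all genes were separate. Whether shared replicate numbers mark pairs of arrays could not be settled. With each group's mean removed, the correlations of same-numbered arrays were low but all positive, from 0.018 to 0.113. Of the 8 arrays, 4 correlated best with their own number. The median difference of the type I genes kept its sign under all alternatives, between -0.29 and -0.07, as did that of the GTPases, between 0.08 and 0.17. Median centring moved the median of all genes to 0.02. Background levels were not used here, so how far low signals such as those of Gbp8 and Oas3 are compressed was not tested.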
